A study of Mus musculus with 6 samples.

Results

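The vehicle arm of a C2C12 myotube experiment was described here as a baseline transcriptome. C2C12 is an established mouse myoblast line that fuses into multinucleated, contractile myotubes when serum is withdrawn. The arm was chosen by its treatment label and holds 3 of the 6 RNA-seq libraries. Its myotubes had differentiated for 5 days and then received vehicle for 72 h. The other 3 libraries, of myotubes given 100 ng/ml recombinant mouse RANKL for 72 h, were not used. All come from 1 cell line grown without nerve, vessel or immune cells, and the labels do not say whether the 3 libraries are separate cultures, so the spread given below may be technical. Read counts assigned to named genes totalled 39677999, 33566746 and 37017967 in vehicle replicates 1, 2 and 3, over 12625 genes. A floor of 3 counts corresponds to 0.0756, 0.0894 and 0.081 CPM (counts scaled to the library total) in these libraries and covers counting error only.

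Skeletal muscle differentiation is driven by MyoD-family basic helix-loop-helix factors, which bind E-boxes, together with MEF2 factors. Myoblasts leave the cell cycle, fuse, and assemble sarcomeres from myosin, actin, troponin and tropomyosin, each encoded by several genes that are used at different stages and in different fibre types. Embryonic and cardiac-type isoforms are typical of early myotubes, and adult isoforms replace them later under the control of nerve and load.

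Levels are given as RPKM, reads per kilobase of gene length scaled for library depth, taken back from the deposited log2 values. These allow genes to be compared per length. The median gene stood at 9.33 RPKM, 11016 genes reached 1 RPKM, 6080 reached 10, 635 reached 100 and 26 reached 1000. The highest 25 genes held 13.9% ± 0.0995 (SD, n = 3) of the summed RPKM and the highest 100 held 25.4% ± 0.183. The order was nearly the same in each library: 10 genes filled the highest 10 places in all 3 libraries, and 96 genes were among the highest 100 in all 3.

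Contractile genes and 1 long noncoding RNA headed the order. Mylpf, the fast skeletal regulatory myosin light chain, ranked first in every library at 5189, 5383 and 5519 RPKM and alone made up 1.44% of the summed RPKM. H19, an imprinted noncoding RNA abundant in embryonic muscle, ranked second at 4354, 4394 and 4363 RPKM. Acta1, skeletal alpha-actin, ranked next at 3823, 3882 and 3889 RPKM. These ranges did not overlap. Of the 60 sarcomere genes listed, all had a row, 54 stood above the median gene, 35 reached 100 RPKM and 20 were among the highest 100. They held 10.3% ± 0.0868 (SD, n = 3) of the summed RPKM. By comparison, 26 of the 94 ribosomal protein genes were among the highest 100, and ribosomal protein genes held 6.51% ± 0.225. The lowest sarcomere gene was Cmya5, at 0.0981, 0.0935 and 0.0847 RPKM.

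The other genes of the highest 20 were Tnnc1, Eef1a1, Myl4, Tmsb10, Myl1, Lgals1, Tnnt3, Tpt1, Tnnt2, Fn1, Tnnc2, S100a4, Tnni1, Eef2, Fth1, Des and Mybph. Tnnc1, the slow skeletal and cardiac troponin C, read 2942, 3061 and 3174 RPKM. Eef1a1, the translation elongation factor, read 3018, 3018 and 3011 RPKM, so these neighbours in the order overlapped. Des, the intermediate filament that ties sarcomeres together, read 1341, 1304 and 1326 RPKM. Mybph, a thick filament protein of the myosin-binding protein family, read 1324, 1296 and 1315 RPKM. The plot of the highest 25 genes shows how close these are to each other: from S100a4 to Myh3 all neighbours but Eef2 and Fth1 overlapped, whereas Mylpf, H19 and Acta1 stood clear. For S100a4, Eef1a1, Tpt1 and Tmsb10 the level is uncertain, because 53.8%, 41.7%, 40.6% and 32.8% of the 75-base words of their transcripts occur in transcripts of other annotated genes.

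**Figure D1:**
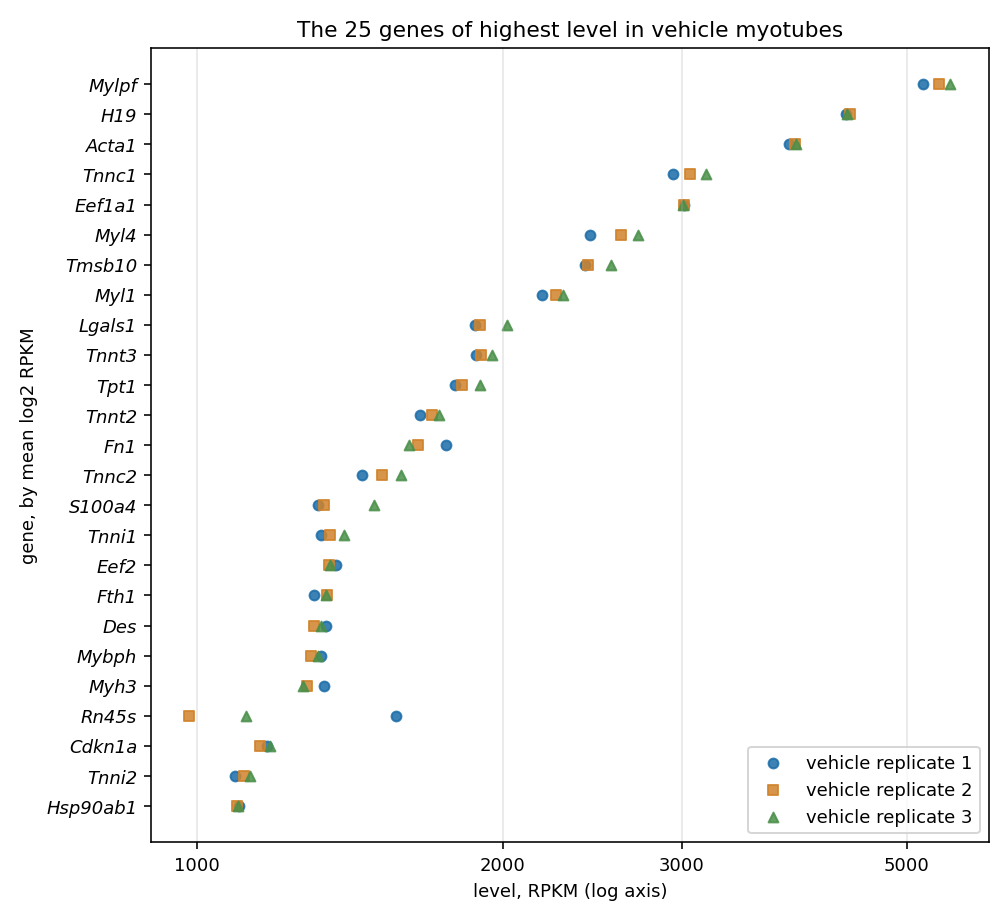
Level of the 25 highest genes in RPKM (log axis), 1 marker for each vehicle library, with genes ordered by mean log2 RPKM. Mylpf leads at 5189 to 5519 RPKM in all 3 libraries, and Rn45s has the widest spread, from 983 to 1572 RPKM.

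The 4 genes used to check the labelled cell state were all at high levels. Besides Mylpf and Acta1, Myh3, the embryonic myosin heavy chain, ranked 21st with 1333, 1283 and 1273 RPKM. Myog (myogenin), the factor that commits myoblasts to terminal differentiation, ranked 110th with 356, 364 and 374 RPKM. The label of differentiated myotubes and these markers did not conflict. In mm10, Mylpf lies on chromosome 7 from 127208890 to 127214298, Acta1 on chromosome 8 from 123891769 to 123894751, Myh3 on chromosome 11 from 67078300 to 67102291 and Myog on chromosome 1 from 134289989 to 134292548. The 250 bases before the annotated start of each are shown, from RefSeq on GRCm38.p6 and read on the gene's strand. The gene coordinates above follow GENCODE M21. For Mylpf, Acta1 and Myog the starts used for the windows differ from those coordinates. They were searched for E-boxes and A/T-rich elements, motif types through which muscle genes can be regulated. Capitals mark matches to the E-box CANNTG, to TATAAA, to the CArG box bound by serum response factor and to the MEF2 site. All but TATAAA read the same on both strands, and TATAAA was searched on the gene's strand only.
Mylpf, chr7:127211358-127211607, plus strand: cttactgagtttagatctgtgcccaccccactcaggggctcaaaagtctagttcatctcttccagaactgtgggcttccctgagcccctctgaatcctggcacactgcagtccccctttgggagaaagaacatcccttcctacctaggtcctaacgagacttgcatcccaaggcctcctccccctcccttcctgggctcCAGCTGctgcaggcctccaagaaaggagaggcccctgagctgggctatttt
Acta1, chr8:123894776-123895025, minus strand: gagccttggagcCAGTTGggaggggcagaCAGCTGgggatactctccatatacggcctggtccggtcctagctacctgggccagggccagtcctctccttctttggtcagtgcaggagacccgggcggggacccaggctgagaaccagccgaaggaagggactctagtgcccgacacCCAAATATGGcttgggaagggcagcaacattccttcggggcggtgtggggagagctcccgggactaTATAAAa
Myh3, chr11:67078050-67078299, plus strand: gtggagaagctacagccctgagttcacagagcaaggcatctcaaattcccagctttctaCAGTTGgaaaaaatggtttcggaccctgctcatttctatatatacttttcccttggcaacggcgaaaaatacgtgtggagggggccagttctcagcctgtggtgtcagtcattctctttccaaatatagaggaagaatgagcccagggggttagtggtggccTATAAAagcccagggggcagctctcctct
Myog, chr1:134289754-134290003, plus strand: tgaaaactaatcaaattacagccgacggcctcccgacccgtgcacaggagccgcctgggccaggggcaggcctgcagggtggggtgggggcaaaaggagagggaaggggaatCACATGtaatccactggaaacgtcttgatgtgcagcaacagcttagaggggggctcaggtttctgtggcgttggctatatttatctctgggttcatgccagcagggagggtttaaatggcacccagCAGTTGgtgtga
The Mylpf window lies inside the annotated gene, which also has an earlier start, and holds 1 E-box. The Myog window holds 2 E-boxes, and its end lies inside the gene as placed above. The Acta1 window holds 2 E-boxes, a CArG box that begins at -73 and TATAAA close to the start used for the window. The Myh3 window holds 1 E-box and TATAAA at -29. Over windows of this length for 9625 measured genes, 56.4% held CANNTG, 3.81% TATAAA, 1.15% a CArG box and 1.8% a MEF2 site. For 46 sarcomere genes the shares were 82.6%, 13%, 13% and 19.6%, and for 34 cell cycle genes 41.2%, 0%, 2.94% and 2.94%. Other muscle lists differed from the sarcomere genes. For 17 genes of calcium release and handling the shares were 58.8%, 0%, 0% and 11.8%, and for 9 postsynaptic genes 88.9%, 0%, 0% and 0%. A match of letters is a description and not a shown binding site.

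Among sarcomeric myosin heavy chains, the motor of the thick filament, the embryonic gene led. Myh3 made up 55.1% ± 0.735 (SD, n = 3) of the family's RPKM, with 55.4%, 54.3% and 55.7% in the 3 libraries. Myh1, the adult fast IIx chain, followed with 35.1%, 35.6% and 34.7%, from 844, 841 and 793 RPKM. The remaining 6 measured members were far lower. Myh4, the fast IIb chain, had a mean share of 4.34%, Myh7, the slow chain, 2.11%, Myh8, the perinatal chain, 1.94%, Myh2, the fast IIa chain, 1.01%, Myh6, the cardiac alpha chain, 0.205%, and Myh7b 0.141%. Every step in this order was beyond the spread of the libraries except that between Myh7 (50.2, 51.8 and 46.9 RPKM) and Myh8 (44.3, 49.0 and 43.4 RPKM), whose ranges overlapped. Some 75-base words of these transcripts also occur in other genes: 16.6% for Myh1, 16.3% for Myh2, 15.5% for Myh6, 15.3% for Myh7, 12.9% for Myh8 and 9.68% for Myh4, against 1.86% for Myh3. How reads with more than 1 match were counted is unknown, and their part in the order was not tested. Myh13 and Myh15 were not analysed here. Outside the sarcomere, Myh9, a non-muscle chain, held 92.1% of its own family.

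**Figure D2:**
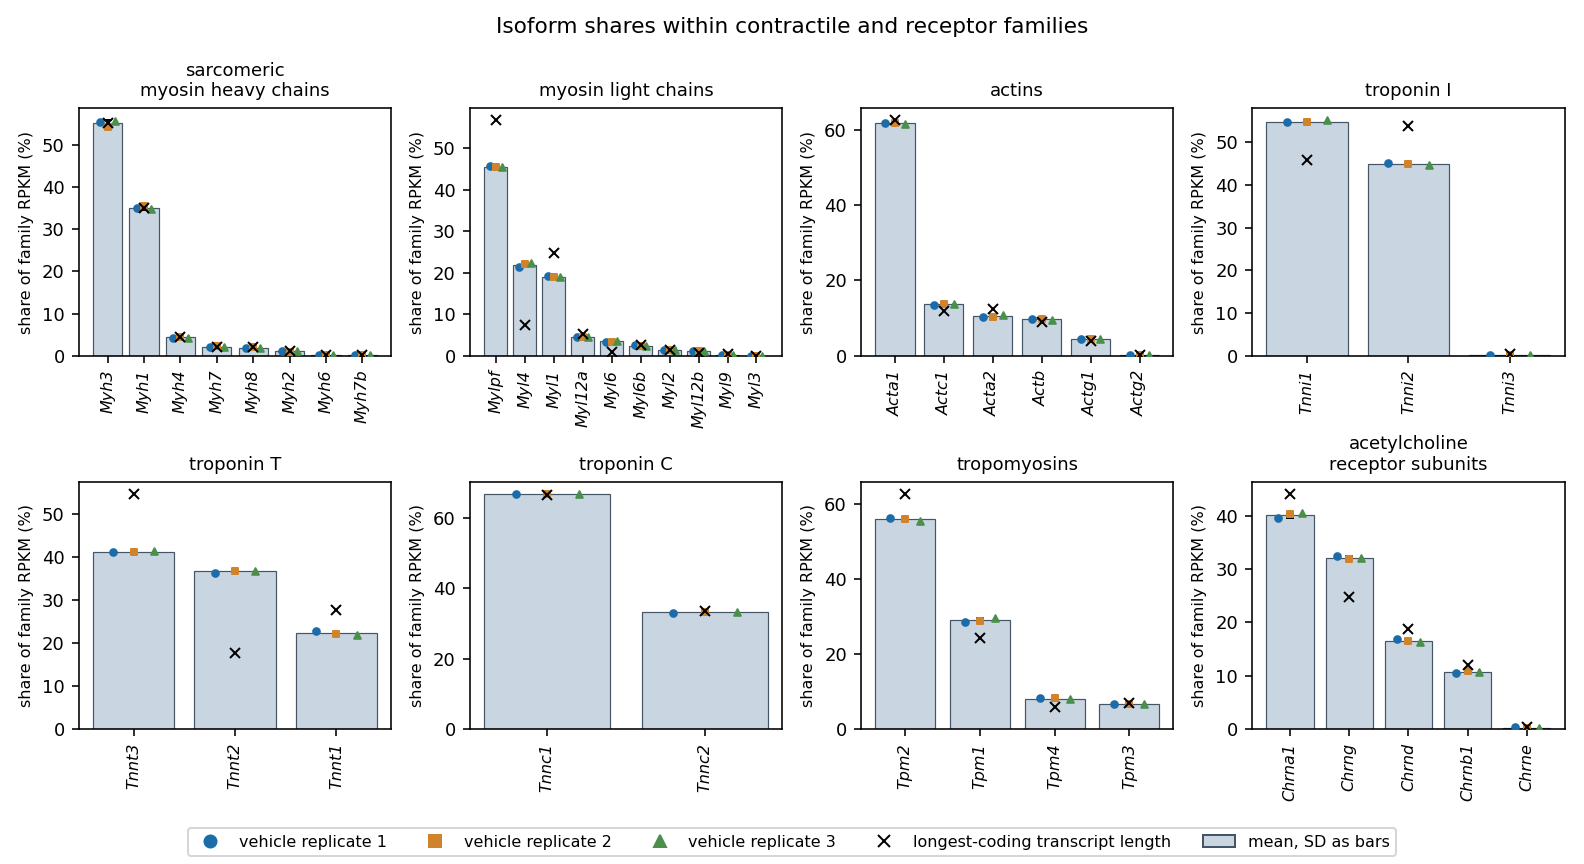
Share of each member in the summed RPKM of 8 gene families (percent): bars are means with SD over the 3 vehicle libraries, coloured markers are the libraries, and crosses are means when the length of the annotated transcript with the longest coding part is used. Libraries lie close together throughout, and crosses leave the bars most, in percentage points, for Tnnt2, Myl4 and Tnnt3.

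The light chains and the thin filament combined fast, slow and cardiac-type genes. Mylpf held 45.8%, 45.6% and 45.5% of the light-chain RPKM. Myl4, the embryonic and atrial essential light chain, held 22.0% ± 0.443 and Myl1, the fast essential light chain, 19.1% ± 0.205. Myl2, the slow and ventricular regulatory chain, held 1.47%, and Myl3, the slow and ventricular essential chain, 0.00955%, at 1.18, 1.30 and 0.877 RPKM. So Myl2 and Myl3, which work together in slow muscle and in the ventricle, were at very different levels here. Myl6b, an essential light chain of slow skeletal muscle and of non-muscle cells, held 2.40%. Myl12a, Myl6, Myl12b and Myl9, the non-muscle and smooth muscle chains, held between 4.56% and 0.248%. Among actins, Acta1 held 61.8%, 61.7% and 61.6%. Actc1, cardiac actin, held 13.6%, Acta2, smooth muscle actin, 10.5%, Actb 9.69%, Actg1 4.42% and Actg2 0.132%. Of the words of Actg1, 54.5% are shared with other genes, so its share is uncertain.

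Troponin and tropomyosin genes of several muscle types were present side by side. Of troponin I, the inhibitory subunit, the slow gene Tnni1 held 54.7%, 54.8% and 55.2% and the fast gene Tnni2 45.1%, 45.0% and 44.6%, while the cardiac gene Tnni3 held 0.220%. Of troponin T, which binds tropomyosin, the fast gene Tnnt3 held 41.2% ± 0.164, the cardiac gene Tnnt2 36.6% ± 0.335 and the slow gene Tnnt1 22.2% ± 0.44. Of troponin C, which binds calcium, Tnnc1 held 66.8% and the fast gene Tnnc2 33.2%. Tnnc2 overlaps Ube2c on the opposite strand, and no source used here says whether counting used strand. Among tropomyosins Tpm2 held 56.0%, Tpm1 29.1%, Tpm4 8.12% and Tpm3 6.75%. Of the alpha-actinins, which anchor thin filaments at the Z disc, the fast-fibre gene Actn3 led with 58.6%, followed by the non-muscle genes Actn4 (16.9%) and Actn1 (13.8%) and the sarcomeric Actn2 (10.7%). Mybph held 95.5% of its family, Mybpc1, the slow form of myosin-binding protein C, 2.76%, and Mybpc2, the fast form, 1.78%. Of the myomesins of the M band, Myom2 held 68.0%, Myom3 18.1% and Myom1 13.9%.

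Several of these orders depend on the length by which counts are divided. The values imply that the authors used 1226 bases for Tnnt2, 865 for Myl4 and 1091 for Tnni1. The annotated transcripts with the longest coding part measure 3330, 3273 and 2153 bases. With those lengths Tnnt2 fell below Tnnt1 (log2 difference -0.65 in place of 0.72), Myl4 below Myl1 (-1.72 in place of 0.21) and Tnni1 below Tnni2 (-0.24 in place of 0.29). The lead of Myh3, Mylpf, Acta1, Tnnt3, Tnnc1 and Tpm2 in their families did not turn with either length. Over all 28 families, with 93 measured members and 65 pairs of neighbours in level, the sign was the same in all 3 libraries for 65 pairs, ranges overlapped for 1 pair, and the order turned with at least 1 of the lengths tried for 9 pairs.

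The machinery that couples excitation to contraction was also high. Of 27 genes listed for calcium release and handling, 26 had a row and 13 reached 100 RPKM, with a median of 97.0 RPKM. Casq2, the slow and cardiac calsequestrin that stores calcium in the sarcoplasmic reticulum, read 579.8, 585 and 596 RPKM and held 77.0% of its pair against 23.0% for Casq1, the fast form. The calcium pumps were nearly balanced: Atp2a2, the slow and cardiac pump, held 51.0%, 52.6% and 53.0% and Atp2a1, the fast pump, 48.9%, 47.3% and 46.9%. Their RPKM ranges did not overlap, but the step was small. Ryr1, the skeletal calcium release channel, held 96.7% and Ryr3 3.29%. The lowest member was Pvalb, a calcium buffer of adult fast fibres, at 2.63, 2.23 and 2.10 RPKM.

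Of the acetylcholine receptor subunits, the fetal gene stood far above its adult replacement. Chrng, the fetal gamma subunit, read 399.6, 376 and 382 RPKM. Chrne, the epsilon subunit that replaces it in innervated adult muscle, read 3.74, 3.23 and 3.05 RPKM. The ratio of Chrng to Chrne was 116 ± 9.26 (SD, n = 3), with no overlap. With exon-union length it was 57.0 and with the length of the transcript of longest coding part 81.6. Chrna1 led the family with 40.2%, ahead of Chrng with 32.2%, Chrnd with 16.6% and Chrnb1 with 10.7%, but the order of Chrng over Chrnd turned with exon-union length (log2 difference -0.02 in place of 0.95). The lowest of the 13 postsynaptic genes was Ache, the acetylcholinesterase, with 1.69, 1.98 and 1.67 RPKM.

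Energy metabolism showed muscle-type isoforms of glycolysis beside a basal glucose transporter. Eno3, the muscle enolase, held 98.2% of its family, Pgam2 85.6%, Pygm, muscle glycogen phosphorylase, 91.6%, Pfkm 88.9% and Ckm, muscle creatine kinase, 77.1%, with Ckb at 22.6% and the mitochondrial Ckmt2 at 0.256%. Eno1 stood at 0.116%, but 65.4% of its words are shared with other genes, chiefly Eno1b, and 40.6% of those of Pgam1, so these counts are uncertain. Ldha held 94.3% against 5.70% for Ldhb. Of the glucose transporters Slc2a1, the widely used basal form, held 93.4% and Slc2a4, the insulin-responsive form of adult muscle, 5.56%, a ratio of 16.9 ± 1.37 (SD, n = 3). Hexokinases Hk1 (57.4%) and Hk2 (42.6%) were closer, and their order turned with the exon-union length. Of the cytochrome oxidase subunits with a heart and muscle form, the widely expressed form led each time: Cox6a1 over Cox6a2 with 67.0%, Cox7a2 over Cox7a1 with 56.0% against 4.76%, and Cox8a over Cox8b with 75.7%. Slc25a4, the muscle and heart adenine nucleotide translocase, held 70.2% against Slc25a5.

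Most genes of myogenic regulation and fusion were high, and cell cycle genes were low. Of the 29 measured genes of the first list, 21 stood above the median gene. Tmem8c (myomaker), the membrane protein needed for fusion, led the 29 with 673, 655 and 655 RPKM, followed by Itga7, the laminin receptor of muscle, with 507, 489 and 492 RPKM. Mef2c read 151, 165 and 153 RPKM and held 45.7% of the MEF2 factors, against 35.2% for Mef2d and 19.2% for Mef2a. Pax7, the satellite cell factor, was the lowest of the list at 0.194, 0.161 and 0.197 RPKM. The next 3 regulators were chosen after their values were seen. Myod1 stood at 93.1, 85.5 and 86.0 RPKM, Myf5 at 7.44, 7.34 and 7.48 and Myf6, the factor of late differentiation, at 3.63, 3.99 and 3.32, so that Myog exceeded Myod1 by 4.14 ± 0.284 and Myf6 by 101 ± 11 times (SD, n = 3). Myf5, Myf6 and Pax7 lay below the 9.33 RPKM of the median gene.

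Of 19 markers of myoblasts and reserve cells, 17 had a row, with a median of 10.6 RPKM. They were led by the integrin Itgb1 with 398, 408 and 395 RPKM, then Sdc4, Spry1 and Cav1.

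All 42 listed cell cycle genes had a row. Their median was 2.67 RPKM, 4 stood above the median of all genes and none reached 100 RPKM. The highest were Rrm2 with 36.6, 36.3 and 35.6 RPKM and Rrm1, the other subunit of ribonucleotide reductase, with 29.7, 28.9 and 29.2 RPKM, followed by Pcna and Mcm7, and the lowest was Cdc6 with 0.209, 0.229 and 0.237 RPKM. Cdkn1a (p21), the inhibitor of cyclin-dependent kinases induced on cell cycle exit, read 1172, 1155 and 1180.1 RPKM, rank 23. It led a list of 17 exit genes, of which 15 had a row, ahead of Gadd45a, Ccnd3 and Rb1, with Cdkn1c lowest at 0.824, 0.988 and 1.05 RPKM. Cdk1, the mitotic kinase, chosen after values were seen, had 3.60, 3.36 and 3.19 RPKM, and Cdkn1a exceeded it 346 ± 22.2 times (SD, n = 3). Because these are bulk libraries, a few cycling cells and a low level in all cells cannot be told apart.

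Measured markers of other cell types had list medians from 0.175 RPKM (endothelial) to 106 RPKM (fibroblast and matrix). All but the last lay below the 9.33 RPKM of all genes. Of 16 macrophage and osteoclast markers 4 had a row, and their summed level was 2.95, 2.79 and 3.21 RPKM, most of it from Cd14. Of 10 endothelial markers 4 had a row, with a summed 1.28, 1.29 and 0.993 RPKM. For adipocytes 4 of 10 and for osteoblasts 5 of 10 had a row, with sums of 17.2 to 17.7 and 4.66 to 4.85 RPKM. Neuronal and Schwann cell markers had 4 of 10 with a row and sums of 22.0 to 23.7 RPKM, chiefly Tubb3. Fibroblast and matrix markers were different: 14 of 16 had a row and 7 reached 100 RPKM, led by Fn1, S100a4, Col3a1 and Col1a2, while Lum was lowest at 0.461, 0.592 and 0.536 RPKM. Myoblasts and reserve cells of the line also make matrix, and which cells these transcripts came from was not tested. Of 10 smooth muscle markers 7 had a row, with a median of 8.23 RPKM and 3 above the median gene. Among them Acta2 (643, 649.9 and 674 RPKM) stood far above Tagln (49.3, 48.8 and 48.8 RPKM). Of 12 cardiac markers 6 had a row, with a median of 5.11 RPKM, a lowest of 0.586 RPKM and 1 above the median gene. Among these Myl2 (162, 178 and 178 RPKM) stood far above Gata4 (6.32, 5.72 and 6.07 RPKM). The marker genes without a row were not analysed here.

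**Figure D3:**
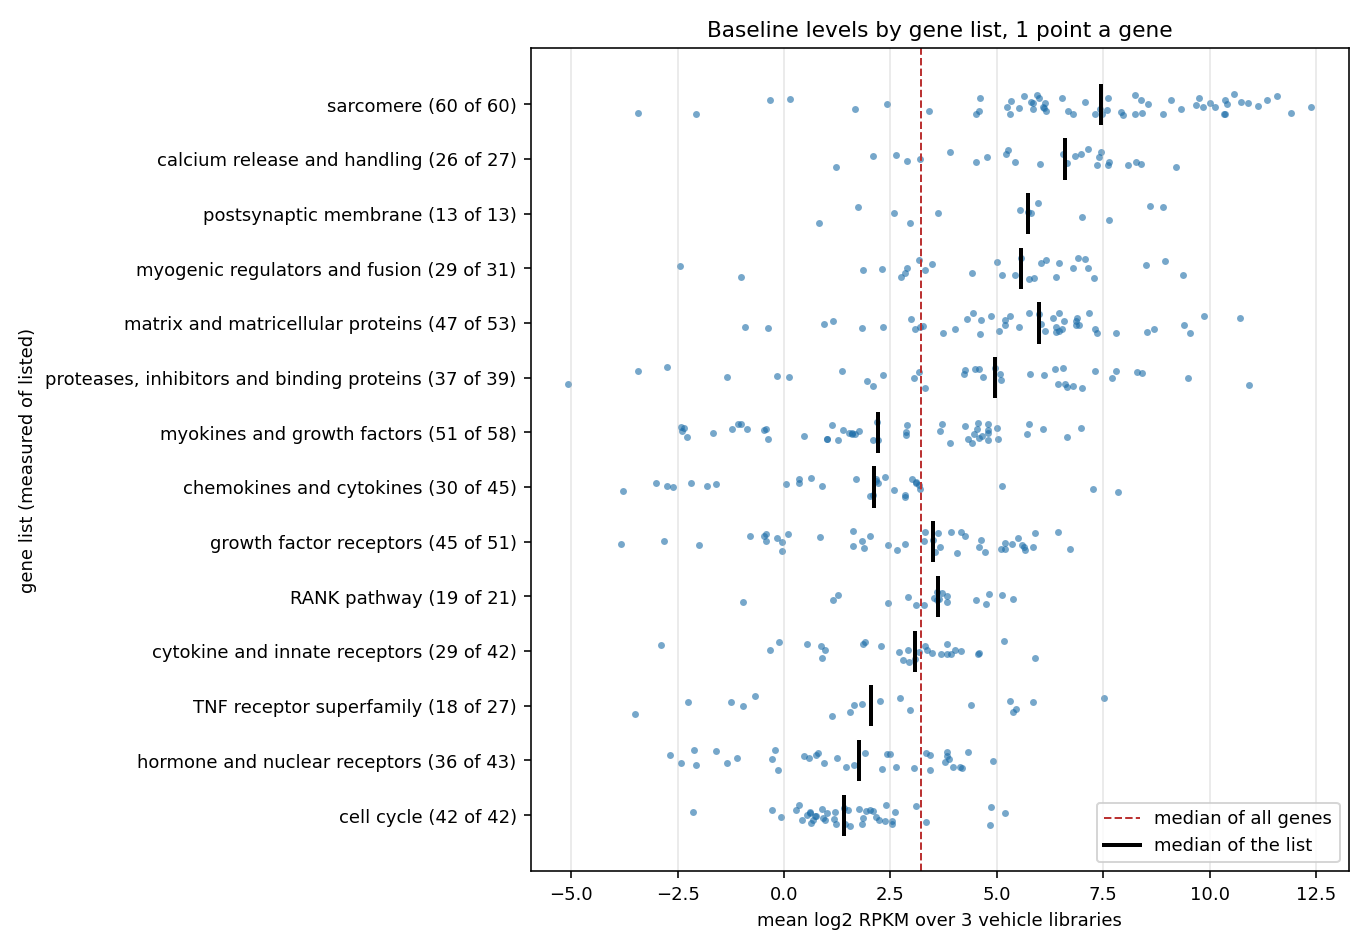
Mean log2 RPKM over the 3 vehicle libraries of each measured gene (points) in 14 lists, with the number measured of those listed, the list median (black bar) and the median of all genes (dashed line). Sarcomere genes have a median of 175 RPKM and cell cycle genes 2.67 RPKM, against 9.33 RPKM for all genes.

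Among the lists of secreted products, matrix had the highest median, at 63.8 RPKM, and the highest summed level, but not the highest single gene. Of 53 matrix and matricellular genes 47 had a row, 38 stood above the median gene and 14 reached 100 RPKM. Fn1, fibronectin, read 1759.7, 1651 and 1618 RPKM, Sparc, a collagen-binding glycoprotein, 939.5, 939.6 and 931, Bgn, the proteoglycan biglycan, 731, 741 and 745, and Col3a1 691, 659 and 660.0 RPKM. Together the 47 held 1.94% ± 0.0534 (SD, n = 3) of the summed RPKM. Among proteases, inhibitors and binding proteins Lgals1, the galactose-binding lectin galectin-1, led with 1879, 1900.4 and 2019 RPKM. It was followed by Timp2, an inhibitor of matrix metalloproteinases, with 738, 726 and 706 RPKM, then by Cst3, an inhibitor of cysteine proteases, and Igfbp5, which binds insulin-like growth factors. The lowest was C3, with 0.0259, 0.0460 and 0.0215 RPKM.

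Growth factors and myokines were lower than matrix: the 51 measured of 58 had a median of 4.63 RPKM, 22 stood above the median gene and 2 reached 100 RPKM. Fstl1, a follistatin-like glycoprotein, led with 128, 130.0 and 122 RPKM. Tgfb3 read 101, 101 and 98.9 RPKM and Fst, follistatin, which binds activins and myostatin, 65.0, 69.0 and 69.2 RPKM. Bmp1 followed with 54.5, 52.7 and 53.8 RPKM, and Angpt2 was lowest with 0.124, 0.193 and 0.274 RPKM. Mstn, which encodes myostatin, was not analysed here. Igf2, chosen after its values were seen because it neighbours H19, read 24.4, 22.4 and 22.5 RPKM, and H19 exceeded it 189 ± 9.69 times (SD, n = 3).

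Chemokines and cytokines were low apart from a few. The 30 measured of 45 had a median of 4.33 RPKM and 3 stood above the median gene. Those were Spp1, osteopontin, with 217, 238 and 234 RPKM, Mif, macrophage migration inhibitory factor, with 148, 153 and 157 RPKM, and Csf1, the macrophage growth factor, with 34.3, 35.6 and 34.5 RPKM. Il15 came next with 9.17, 9.84 and 8.43 RPKM. The lowest of the 30, Cxcl9, read 0.0724, 0.0814 and 0.0659 RPKM, where values are set in large part by the count that was added before the logarithm.

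Receptor genes ranged widely in level, and among the growth factor, cytokine, hormone and TNF receptor lists only the first had a median above that of all genes. Of 51 growth factor receptors 45 had a row, with a median of 11.4 RPKM, and 25 stood above the median gene. Tgfbr2, the type II receptor for TGF-beta, was highest with 107, 107 and 106 RPKM. It was followed by Fgfrl1, an FGF receptor without a kinase domain, with 88.9, 86.6 and 84.2 RPKM, by Erbb3 with 60.5, 59.1 and 58.6 RPKM and by Fgfr1 with 59.4, 58.4 and 56.9 RPKM. The ranges of Erbb3 and Fgfr1 overlapped. Ret was lowest with 0.0637, 0.0977 and 0.0556 RPKM. The 29 measured cytokine and innate receptors had a median of 8.40 RPKM, with 13 above the median gene. Among them Il6st (gp130), the signalling chain shared by the IL-6 family, led with 60.8, 60.0 and 57.2 RPKM, ahead of Ghr and Ifngr2, and Il1rl1 was lowest with 0.135, 0.165 and 0.111 RPKM. Il6ra, chosen after its values were seen, stood at 2.03, 1.82 and 1.98 RPKM. The 36 hormone and nuclear receptors had a median of 3.40 RPKM, with 12 above the median gene, and were led by Rarg, a retinoic acid receptor, with 30.2, 29.0 and 31.3 RPKM, then Thra, Rxra and Nr1d1, with Nr3c2, the mineralocorticoid receptor, lowest.

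The TNF receptor superfamily was led by 1 member. Tnfrsf12a (Fn14), the receptor for TWEAK, read 177, 180.0 and 189 RPKM. The next was Eda2r with 55.5, 59.4 and 56.4 RPKM, then Ltbr, the lymphotoxin receptor, with 42.4, 43.8 and 44.4 RPKM and Tnfrsf1a, the main TNF receptor, with 41.5, 40.3 and 42.0 RPKM. Tnfrsf12a exceeded Tnfrsf1a 4.41 ± 0.131 times (SD, n = 3), and 2.65 times with exon-union length. Of 27 genes listed 18 had a row, their median was 4.10 RPKM, 6 stood above the median gene, and Tnfrsf9 was lowest with 0.0832, 0.0659 and 0.123 RPKM.

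The components downstream of RANK, the receptor for RANKL, were present at moderate levels in vehicle myotubes. Of 21 genes listed 19 had a row, with a median of 12.2 RPKM, and 13 stood above the median gene. The receptor gene Tnfrsf11a and the ligand gene Tnfsf11 were not analysed here. Tnfrsf11b (osteoprotegerin), the decoy receptor for RANKL, read 0.504, 0.521 and 0.520 RPKM, the lowest of the 19. Lgr4, a further receptor for RANKL, read 5.27, 5.62 and 5.53 RPKM. Among adaptors Traf3 read 14.9, 14.5 and 13.6, Traf2 12.1, 12.3 and 11.9, Traf6, which couples RANK to NF-kappa-B and MAP kinases, 7.64, 7.65 and 7.26, and Traf5 2.53, 2.26 and 2.47 RPKM. Of these 4 listed TRAF genes Traf3 stood highest, beyond the spread of the libraries. The kinases ranged from Map3k14 (8.96, 8.42 and 8.49 RPKM) to Map3k7 (27.6, 26.7 and 26.4 RPKM), with Ikbkb, Ikbkg, Chuk and Src between 11.3 and 13.6 RPKM, and the TAK1-binding proteins Tab1 and Tab2 at 14.1 to 14.7 and 40.3 to 41.7 RPKM. Of the transcription factors Rela read 36.1, 34.9 and 34.2, Nfkb2 29.1, 27.4 and 28.0, Nfkb1 22.9, 22.3 and 23.1, Relb had a mean of 9.69 ± 0.340, and Nfatc1, the osteoclast master regulator, read 2.40, 2.33 and 2.00 RPKM.

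Ubiquitin ligases of muscle wasting and FoxO factors had all 15 listed genes measured. Nedd4 led with 242, 243 and 241 RPKM, ahead of Trim54, Trim55 and Mdm2, and Traf6 was the lowest. The atrophy ligases Trim63 (MuRF1) and Fbxo32 (atrogin-1), chosen after values were seen, stood at 41.0, 40.9 and 42.0 RPKM and at a mean of 20.4 ± 0.393 RPKM. Among imprinted and noncoding genes H19 was followed by Malat1, with 265, 232 and 219 RPKM, Peg3, with 88.5, 81.5 and 81.0, and Xist, with 65.2, 56.1 and 48.4 RPKM. H19 varied by less than any of these, with an SD of log2 CPM of 0.009.

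The 3 libraries were close to each other, and most of their spread for genes of few counts was of the size of counting error. The median SD of log2 CPM was 0.057 over all genes and the common biological coefficient of variation 3.04%. Pearson's r of log2 RPKM across genes was 0.9974, 0.9973 and 0.9974 for the 3 pairs, and genes are not independent replicates. The pairs nevertheless differed by more than counting error, with a mean chi-square per gene of 5.86, 8.64 and 3.43, and no pair was merged. Where the excess came from was not tested. For 1735 genes with 10 to 100 counts the median SD was 0.203 against a counting SD of 0.225. For 585 genes above 10000 counts it was 0.032 against 0.011, and 70.1% of them had an SD over 2 times their counting SD. Of the 11889 genes that averaged 1 CPM or more, 201 (1.69%) differed over 1.5 times between the highest and lowest library. The 6 of widest spread were Dancr (68, 26 and 24 counts), Fam161a, 1500015A07Rik, Btbd8, Ccdc88b and A530072M11Rik, all of few counts, so that their SD of 0.530 to 0.719 compares with a counting SD of 0.220 to 0.257.

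**Figure D4:**
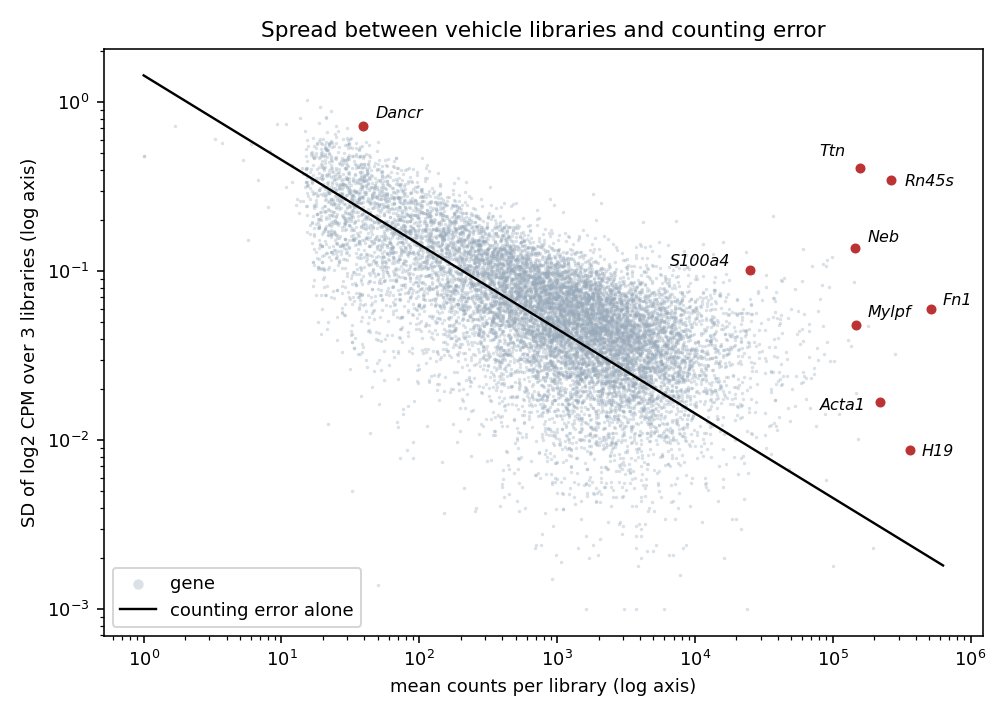
SD of log2 CPM over the 3 vehicle libraries against mean counts per gene (both log axes, SD under 0.001 drawn at 0.001), with the line for counting error alone. Ttn (0.409) and Rn45s (0.347) lie far above the line at very high counts, whereas H19 has an SD of 0.009.

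Among abundant genes the deviations of replicates 1 and 3 from the gene's mean went with transcript length, in opposite directions. Ttn, Neb and Rn45s were chosen after their values were seen. Ttn, the giant spring protein of the sarcomere, read 52.0, 41.9 and 29.5 RPKM, and Neb, the thin filament ruler nebulin, 195, 179 and 160.2 RPKM. Ttn and Neb were highest in replicate 1 and lowest in replicate 3. Mylpf, Tnnc1 and Myl4, for which the authors' values imply 740, 689 and 865 bases, had the opposite order. Over 24 genes with a transcript of at least 16000 bases the median log2 deviation from the gene's mean was 0.116 in replicate 1, 0.005 in replicate 2 and -0.104 in replicate 3, and 22 of the 24 were highest in replicate 1. Over 278 genes with a transcript under 1000 bases it was -0.057, 0.000 and 0.053, and 205 of the 278 were highest in replicate 3. Across 8912 genes with at least 10 CPM, Spearman's rho of deviation with length was 0.39, 0.03 and -0.45, as a description of points that share libraries. The precursor of ribosomal RNA, Rn45s, took 0.898%, 0.568% and 0.651% of the counts, with 1572, 983 and 1119 RPKM. Which step gave these differences was not tested.

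**Figure D5:**
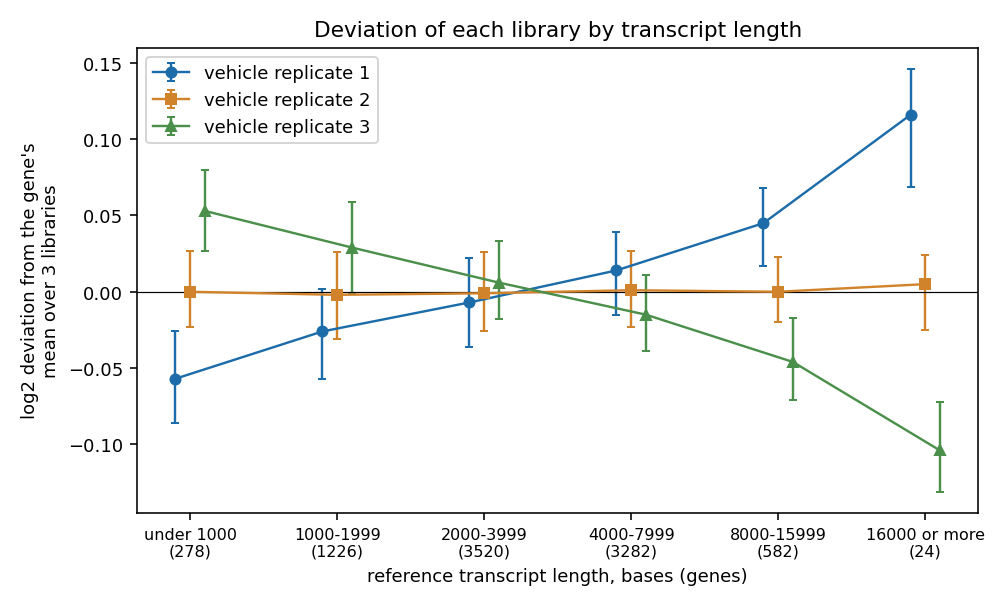
Median log2 deviation of each vehicle library from the gene's mean over the 3 libraries (lines between quartiles as bars) by length of the reference transcript in bases, for genes with at least 10 CPM. The 3 deviations of a gene sum to about 0 by construction; replicate 1 runs from -0.057 to 0.116 and replicate 3 from 0.053 to -0.104.

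For some gene lists the library with the highest level was unevenly spread too. Whether this goes beyond the trend with transcript length given above was not tested. Of the 10 measured light chains 9 were highest in replicate 3, and of the 8 measured sarcomeric heavy chains 7 were lowest in it. Over all 12625 genes, 4451, 3855 and 4319 were lowest in replicates 1, 2 and 3. Of 45 growth factor receptors 26, of 47 matrix genes 25 and of 19 RANK pathway genes 12 were highest in replicate 1, while over all genes 4457, 3947 and 4221 of 12625 were highest in replicates 1, 2 and 3. The median deviations behind these counts were small: 0.028 for growth factor receptors, 0.036 for matrix genes and 0.039 for the RANK pathway in replicate 1, on the log2 scale. Other lists were more even by the library of highest level. Of 60 sarcomere genes 22, 19 and 19 were highest in replicates 1, 2 and 3. Of 29 cytokine and innate receptors the counts were 8, 11 and 10. Their lowest levels were less evenly spread. Replicates 1, 2 and 3 were lowest for 25, 7 and 28 of the sarcomere genes. For these receptors the counts of lowest level were 16, 7 and 6. Isoform shares had a largest SD of 1.63 percentage points over the 93 members.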

How the data were processed

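Total RNA isolated with Trizol and miRNeasy columns was read as 75-base paired ends on a HiSeq 4000, per the labels' protocols. Per the submitters' processing notes, the tools were FastQC, STAR and edgeR with genome mm10. No source used here gives the annotation, the counter or the use of strand. The authors deposited whole-number read counts and log2 values. Against the counts, the deposited log2 values behave as log2 RPKM with a scaling factor per library and an added count of about 2.04. Both tables hold 12625 named genes, the set used here, and 4708 lines with no gene. Of these, 1 gene has no count in any vehicle library, 14 average under 10 counts, and no symbol begins with mt-, the prefix of mitochondrial genes. List medians and lowest members cover only genes with a row, and listed genes without one may lie lower.

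RPKM was 2 to the power of the deposited value. Shares within a family were computed per library. Spread was computed from counts with TMM scaling (edgeR 4.0.16) as log2 CPM with an added count of 2, and counting SD from the counts. Annotated lengths and coordinates came from GENCODE M21, matched by symbol for 12176 genes and by an older name for 377. Scripts were tested on simulated data. With 1 group no test between groups was made.

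The rule for naming genes took the 4 markers, the 20 highest, all isoform family and RANK pathway members, the 4 highest and the lowest of each other list, and the 6 of widest spread. Any other gene is said in the text to be chosen after its values were seen, and 1 gene within the rule is not reported here. The members and lists were chosen with earlier results of these data known. Alternatives tried were leaving out each library, other gene lengths, no added count and other scalings.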

Additional observations from a re-analysis of the deposited data

How the results depend on the processing

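The shares that a gene held in its family moved with the gene length used. With exon-union length, Mylpf held 62.0% of light chains, Tnnt3 64.1% of troponin T, Tpm2 71.1% of tropomyosins, Acta1 64.9% of actins, Myh3 56.9% of heavy chains, Tnni1 45.8% of troponin I, Tnnc1 61.1% of troponin C, Chrng 18.8% of receptor subunits, Atp2a2 51.0% of calcium pumps and Ckm 76.1% of creatine kinases. With the length of the transcript of longest coding part, chosen after seeing the data, the shares of Mylpf, Tnnt3, Tpm2, Acta1, Tnni1, Tnnc1 and Chrng were 56.8%, 54.7%, 62.9%, 62.5%, 45.8%, 66.5% and 24.8%. The highest 25 genes then held 15.2% with the first and 14.9% with the second length. The order of neighbours turned under exon-union length for Myl4 over Myl1 (log2 difference -1.29), Myl6 over Myl6b (-1.0), Actc1 over Acta2 (-0.07), Tnni1 over Tnni2 (-0.24), Tnnt2 over Tnnt1 (-0.82), Chrng over Chrnd (-0.02) and Hk1 over Hk2 (-0.37). It turned under the other length for Myl4 over Myl1 (-1.72), Myl6 over Myl6b (-1.51), Actc1 over Acta2 (-0.04), Tnni1 over Tnni2 (-0.24), Tnnt2 over Tnnt1 (-0.65), Tpm4 over Tpm3 (-0.26) and Mef2d over Mef2a (-0.34). The length that the authors divided by is not stated and was inferred from the deposited values. For several genes it differed from both lengths. Leaving out 1 library moved the median SD of log2 CPM from 0.057 to between 0.044 and 0.051. A median SD over fewer libraries tends to be lower, so this change cannot show dependence on a library. Leaving out 1 library moved none of the 10 shares above by as much as its SD. Dropping 1 value can never move a mean that far, so this cannot show that the shares are stable. Of 223 gene levels under the naming rule, 203 moved by more than their SD with exon-union length, 107 with the length of the transcript of longest coding part, 21 with total-count scaling and 6 with no added count. For the 14 genes that average under 10 counts, levels rest largely on the added count. No paired analysis was possible because only 1 group was analysed.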
